A study of Mus musculus with 19 samples.

Results

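Cytosolic ribosomal protein genes were described in the livers of 19 mice of 3 genotype codes and 2 diets, from a series on Kcp, a secreted regulator of BMP and TGF-beta signalling. The members were the genes whose single symbol in the platform annotation is Rpl or Rps followed by a digit, or is Rplp0, Rplp1, Rplp2 or Rpsa, without pseudogenes and without the S6 kinases. The rule used names only and found 69 of the 22180 measured genes, 42 of the large subunit (Rpl) and 27 of the small subunit (Rps). RefSeq lists 67 of them as protein coding and 2, Rps4l and Rpl6l, as pseudogenes. The rule also took Rps19bp1 and Rps23rg1, which are named after ribosomal proteins without being part of the ribosome, and Rpl7l1, which acts in ribosome assembly.

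Whole liver RNA was hybridised to 1 Affymetrix array per animal. The samples carry the genotype codes WT, KO or TG and the diet codes ND, for normal, and HFD, for high-fat; feeding lasted 4 weeks and the mice were 2 to 3 months old. There were 3 animals in each of WT ND, KO ND, TG ND, WT HFD and KO HFD and 4 in TG HFD. The labels do not spell out the codes, the allele, the promoter of a transgene, strain, sex, litter or time of harvest. Kcp stands only in the title of the series. Animal numbers follow diet and mostly genotype, so that neither can be told apart from cohort, and nothing else states that replicates were raised apart. In TG, Kcp was at 5.56 ± 0.19 on ND (SD, n = 3) and 5.66 ± 0.13 on HFD (SD, n = 4), in log2 units. WT stood at 2.55 ± 0.23 and 2.23 ± 0.40, and KO at 2.03 ± 0.34 and 2.01 ± 0.14 (SD, n = 3 for each diet), with no difference between KO and WT that passed. The position of the probes within the gene is not known here, so this does not check the KO label. Hepatocyte markers averaged 11.0 to 11.3 per array (9 genes), as a check of the tissue. Arrays that stood apart from their own group most were WT HFD replicate 1 (mean correlation 0.9688) and TG HFD replicate 2 (0.9711).

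Ribosomal proteins are built with ribosomal RNA into the small and the large subunit, and a liver cell makes many ribosomes to supply its secreted proteins. Their mRNAs are among the most abundant of the cell. Most begin with a short run of pyrimidines, the terminal oligopyrimidine (TOP) tract, through which mTORC1 and the binding protein LARP1 set their translation and stability. The genes have many processed pseudogenes and near-identical copies, so that probes named for 1 gene can also take up RNA of another copy.

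The annotated first bases of 10 member genes are printed here because the TOP tract is the feature that the family shares and that the rule did not use. Each line holds 15 bases before the RefSeq start and 15 from it on (assembly GRCm38.p6, 5′ to 3′ on the strand of the gene), with the longest run of C and T near the start in capitals. The first 8 are the members that differed between groups and have an entry in the promoter table, and Rpl15 and Rps6 were added as members with a clear tract. The windows are chr3:86142654-86142683 (minus strand) for Rps3a1, chr3:130730384-130730413 (minus) for Rpl34, chr10:23787195-23787224 (minus) for Rps12, chr10:20208424-20208453 (plus) for Rpl32l, chr2:26910792-26910821 (plus) for Rpl7a, chr5:115559452-115559481 (plus) for Rplp0, chr17:27635230-27635259 (minus) for Rps10, chr7:116334176-116334205 (minus) for Rps13, chr14:18270972-18271001 (minus) for Rpl15 and chr4:86857353-86857382 (minus) for Rps6.
Rps3a1: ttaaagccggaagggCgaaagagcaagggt
Rpl34: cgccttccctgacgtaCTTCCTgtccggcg
Rps12: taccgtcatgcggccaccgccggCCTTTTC
Rpl32l: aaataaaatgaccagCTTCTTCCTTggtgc
Rpl7a: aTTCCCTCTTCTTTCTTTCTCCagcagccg
Rplp0: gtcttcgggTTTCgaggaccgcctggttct
Rps10: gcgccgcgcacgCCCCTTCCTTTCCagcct
Rps13: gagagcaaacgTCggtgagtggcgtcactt
Rpl15: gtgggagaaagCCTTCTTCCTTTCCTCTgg
Rps6: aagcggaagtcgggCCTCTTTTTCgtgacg

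The run at the start was 17 bases long in Rpl15, 21 in Rpl7a and 10 in Rps6, while Rps13 and Rps3a1 had 2 bases and 1 base in a run there. In Rps12 the run of 11 bases goes on past the window. Over the 54 members with an entry, 22 (40.7%) had an unbroken run of at least 8 bases, each C or T, that reached into the stretch from 5 bases before to 10 after the start. Of all 27025 genes in the table, 3006 (11.1%) had one. The letters CTTCCGG or their reverse complement CCGGAAG, which ETS-family factors are known to bind, stood within 250 bases before to 50 after the start in 22 members (40.7%) and in 2465 of all genes (9.12%), counting both strands. Both are descriptions of letters near an annotated start. Rpl3, Rpl29 and Rpl17 are among the 15 members without an entry.

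Levels on this array differed widely between probe sets. A gene was represented by its probe set of highest mean, and a log2 value below 2, where most genes of the array lie, was taken as dim. Of the 69 members, 51 had a mean of at least 2 and 33 a mean of at least 5, from Rps19bp1 at 5.11 to Rpl21 at 10.1. The other 18 (26.1%) were below 2, against 56.5% of all genes, and they include core subunits such as Rps14, Rps15 and Rpl11. A low mean belongs to the probe set used, not to the gene. For Rpl30, Rpl27a and Rpl37a it was 0.70, 1.12 and 1.14, but probe sets shared with other symbols averaged 8.37, 7.78 and 7.58. The shared probe set of Rpl39 was dim too, at 0.60. Levels were not compared between genes, since probes differ. Within groups the residual SD was 0.21 in the median member and 0.21 in the median gene. It ran from 0.055 for Rpl15, the steadiest member, to 0.78 for Rps23. Among the 33 bright members the deviations of arrays from their group means tended to move together. The median correlation between 2 members was 0.27 and 79.5% of pairs were above 0, against 0.020 and 52.5% among the 4639 other genes of at least 5. These values share arrays and normalization and are a description.

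**Figure D1:**
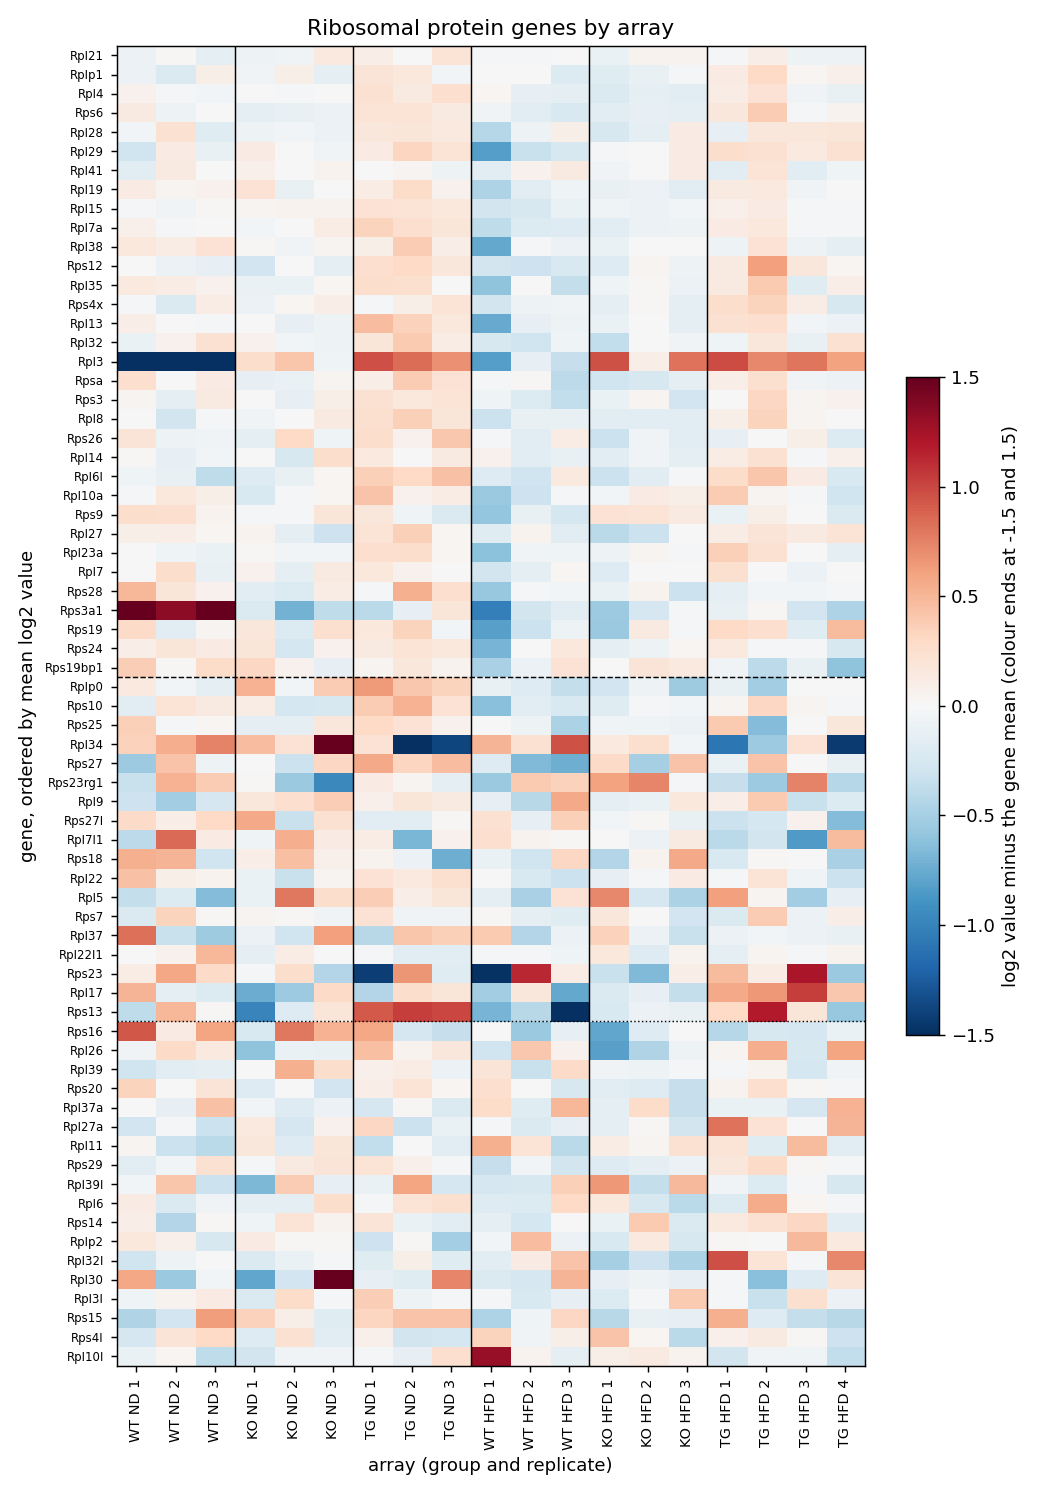
Log2 value of each of the 69 genes (rows, brightest at the top) on each of the 19 arrays (columns, by group), shown as its difference from the gene's mean over all arrays. The dashed line marks a mean of 5 and the dotted line a mean of 2. Rpl3 is blue and Rps3a1 red in the 3 WT ND arrays, the TG ND columns are mostly pale red among the bright genes, and WT HFD replicate 1 is blue.

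The first question was whether members differed among the 6 groups at all. By limma's moderated F test with Benjamini-Hochberg adjustment over all genes, 9 of 69 members passed at an adjusted p under 0.05 (Rpl3, Rps3a1, Rpl29, Rpl34, Rpl7a, Rplp0, Rps10, Rps12 and Rps13), against 8.7% of all genes. Adjusted p-values below are from the same limma fit of all 22180 genes. Leaving out 1 array gave 3 to 8 members, with the lowest counts without a TG ND array (4, 3 and 4), without WT HFD replicate 1 (4) or 3 (5) and without KO HFD replicate 1 (5). Rpl3 and Rps3a1 stood far apart from the rest, and they set WT ND against the other 5 groups.

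Rpl3, a large-subunit protein that reaches towards the peptidyl transferase centre, was lowest in WT ND. Its log2 values were 5.48, 4.92 and 5.22 in WT ND, 7.73, 7.88 and 7.41 in KO ND, and 8.43, 8.30 and 8.16 in TG ND. On HFD they were 6.64, 7.34 and 7.13 in WT, 8.42, 7.56 and 8.28 in KO, and 8.45, 8.19, 8.27 and 8.07 in TG. No WT ND array reached any array of another group, and the WT HFD arrays lay below all other HFD arrays. The difference from WT ND was 3.09 in TG ND (SE 0.22, adjusted p = 1.14e-07), 2.47 in KO ND (SE 0.22, adjusted p = 2.3e-06) and 1.83 in WT HFD (SE 0.22, adjusted p = 1.57e-04).

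Rps3a1, a protein of the small-subunit platform, had the opposite pattern. Its values were 7.76, 7.27 and 7.51 in WT ND, 5.70, 5.21 and 5.54 in KO ND, and 5.52, 5.80 and 6.10 in TG ND. On HFD they were 4.90, 5.64 and 5.76 in WT, 5.38, 5.67 and 5.89 in KO, and 5.81, 5.94, 5.63 and 5.47 in TG. Every WT ND array was above every other array, while the other 5 groups overlapped. The difference from WT ND was -2.03 in KO ND (SE 0.22, adjusted p = 2.87e-05), -1.71 in TG ND (SE 0.22, adjusted p = 2.63e-04) and -2.08 in WT HFD (SE 0.22, adjusted p = 5.31e-05). These comparisons share the same 3 WT ND arrays, for Rpl3 as for Rps3a1, and are not independent of each other.

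The diet difference of both genes depended on genotype by the interaction test. For Rpl3 the HFD difference was smaller by 1.88 in TG than in WT (interaction -1.88, SE 0.30, adjusted p = 0.00947) and by 1.42 in KO (interaction -1.42, SE 0.31, adjusted p = 0.0356). For Rps3a1 the interaction was 1.99 in TG (SE 0.30, adjusted p = 0.00817) and 2.24 in KO (SE 0.31, adjusted p = 0.0016). Within KO and within TG neither gene passed for diet. These were the only 2 members past the threshold in either interaction, against 0.825% of all genes for KO and 0.221% for TG. The KO interaction of Rpl3 lost its call in 7 of 12 fits without 1 array, with adjusted p-values up to 0.11 (without KO ND replicate 2), and the other 3 kept theirs in every such fit. With the mean of all probe sets of a gene both interactions of Rpl3 lost their calls, at -0.32 in KO (adjusted p = 0.675) and -0.21 in TG (adjusted p = 0.893). That of KO was also lost with only the compared arrays in the fit (-1.42, adjusted p = 0.0844).

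Other probe sets did not carry these patterns. Rpl3 has 3 probe sets, and the second by brightness averaged 4.01 ± 0.011 in WT ND, 3.98 ± 0.38 in KO ND, 4.04 ± 0.56 in TG ND, 3.75 ± 0.37 in WT HFD and 3.82 ± 0.036 in KO HFD (SD, n = 3 each), and 4.02 ± 0.37 in TG HFD (SD, n = 4). It correlated with the probe set used at r = 0.031 over the 19 arrays, and the third, with a mean of 1.35, at r = -0.37, as a description. The second probe set of Rps3a1 had a mean of 0.43, near background, and shows nothing either way. With the mean of all probe sets in place of the brightest, the diet difference of Rpl3 in WT was 0.23 (adjusted p = 0.676). Its differences from WT ND were 0.83 in TG ND (adjusted p = 0.0114) and 0.73 in KO ND (adjusted p = 0.0165), which passed. That mean includes the probe set that carries the pattern, so that these calls are not separate evidence. Whether each probe set measures the gene it is named for or a copy of it was not tested. The small nucleolar RNAs Snord43 and Snord83b, which lie in Rpl3, and Snord73a, which lies in Rps3a1, passed in no comparison. Snord43 and Snord83b had means of 1.41 and 1.83, in the dim range, and show nothing either way about Rpl3. None of the 13 measured small nucleolar RNAs inside 12 member genes passed in any comparison, against 0.221% to 4.2% of all genes per comparison or interaction. AF357399, Snord58b, Snord15a and Snora69 were dim too, with means of 0.74, 1.14, 1.95 and 1.99. With shares this low, the lack of a call among 13 genes shows nothing either way.

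**Figure D2:**
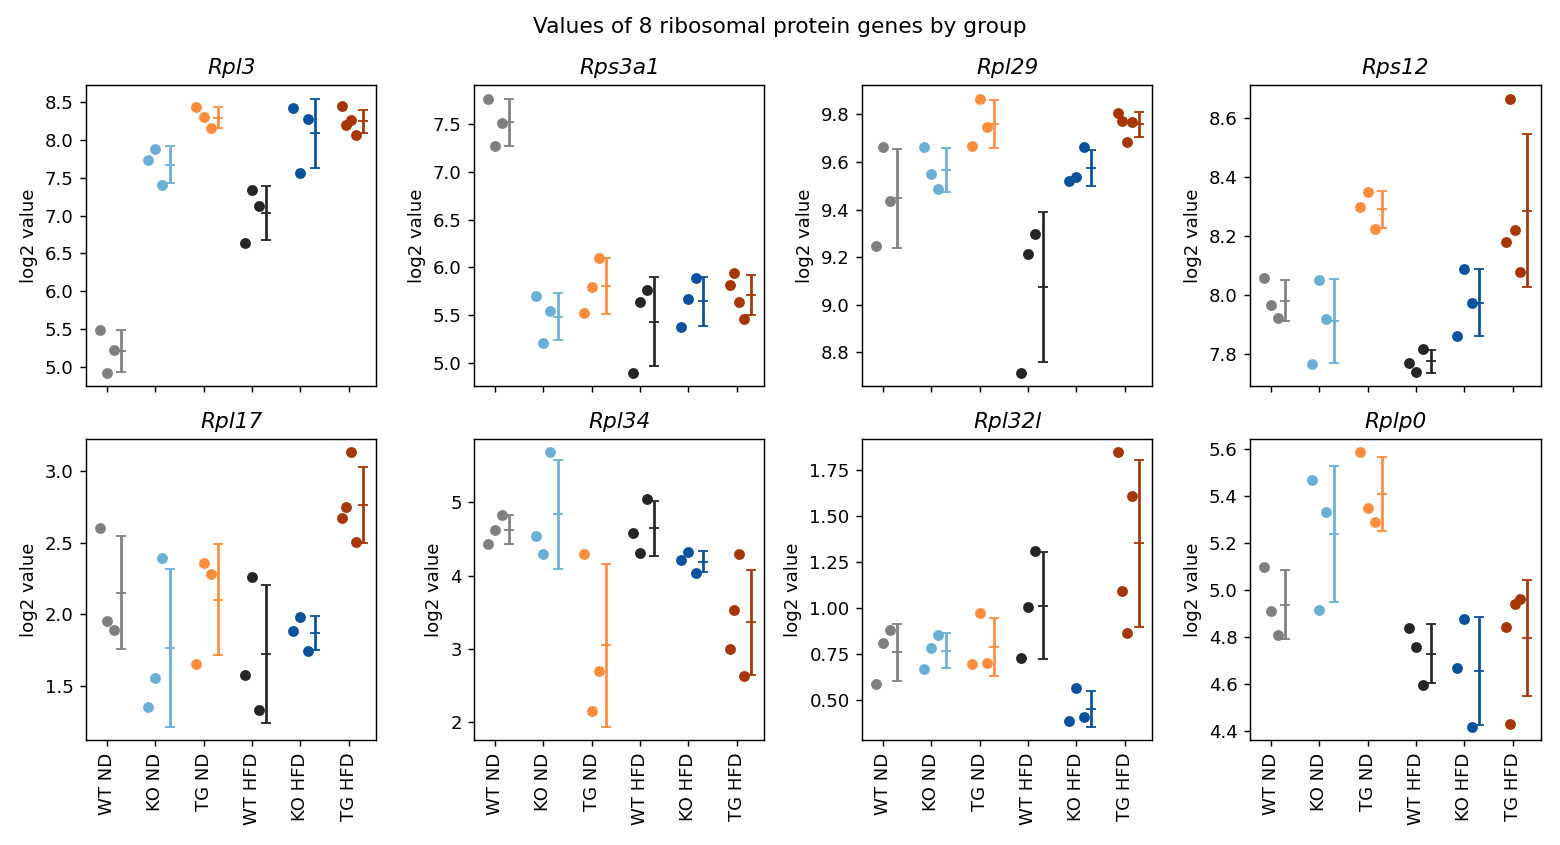
Log2 values of 8 ribosomal protein genes in each of the 6 groups. Points are arrays and the bars beside them show the mean and SD (n = 3, and n = 4 in TG HFD); each panel has its own scale. The WT ND points of Rpl3 and Rps3a1 lie apart from all others, and those of Rpl29 are highest in the TG groups.

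The comparison of TG with WT on ND asked how livers with high Kcp differ from controls. Of 69 members 1 was higher (Rpl3) and 1 lower (Rps3a1), against 0.924% of all genes higher and 0.379% lower (1.3% in either direction), and 67 did not pass. The median member difference was 0.10 and 51 of 69 lay above 0, while the median of all genes was -0.0033. The 33 bright members lay above 0 in 29 cases, with a median of 0.16, against 2314 of the 4639 other bright genes and a median of -0.0008. Without Rpl3 and Rps3a1, left out after their values were seen, the array means of the other 31 bright members were 7.92, 7.95 and 7.86 in TG ND and 7.80, 7.74 and 7.74 in WT ND, with no overlap. Of the 12 Kupffer cell and macrophage markers, all 12 passed as higher in TG ND, and their mean per array was 5.88 to 6.45 against 4.41 to 4.52 in WT ND. Endothelial markers (8 genes) had means per array of 6.11 to 6.17 in TG ND and 5.75 to 5.93 in WT ND. Stellate cell and fibroblast markers (8 genes) had 4.55 to 4.84 and 4.21 to 4.50, and Dcn and Reln of these passed as higher. Hepatocyte markers overlapped, at 11.15 to 11.21 and 11.10 to 11.23. The part of other cells in the member values was not tested, and in whole liver fewer cells of a type and less RNA per cell cannot be told apart.

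On HFD more members passed than on ND, and so did more of all genes, at 3.57% against 1.3% in either direction. Of 69 members 4 were higher in TG than in WT and none was lower, against 1.68% of all genes higher and 3.57% past the threshold in either direction. The median member difference was 0.17, with 49 of 69 above 0, and that of the 33 bright members 0.26, with 29 above 0. The other bright genes had a median of -0.036, with 2008 of 4639 above 0. Leaving out WT HFD 1 and TG HFD 2, the median of the bright members was 0.14, with 25 above 0. Kupffer cell and macrophage markers were again higher in 12 of 12 cases, at 5.81 to 6.34 per array against 4.33 to 4.76 in WT HFD. Ighm of 7 B and plasma cell markers (2.38) and Cd4 of 10 T and NK cell markers (1.13) also passed as higher. So did Lyve1 of 8 endothelial markers (1.52) and Reln of 8 stellate cell and fibroblast markers (0.43), but array means of these 2 lists overlapped between the groups. The part of all these cells in the member values was not tested.

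Rpl29, a basic protein of the large subunit, was 9.81, 9.77, 9.69 and 9.77 in TG HFD and 8.71, 9.21 and 9.30 in WT HFD, with no overlap (difference 0.68, SE 0.13, adjusted p = 0.00596). Rps12, at the beak of the small subunit, was 8.18, 8.67, 8.22 and 8.08 in TG HFD and 7.77, 7.74 and 7.82 in WT HFD (0.51, SE 0.12, adjusted p = 0.0274). Rpl17, which lines the exit tunnel for the growing protein, was 2.67, 2.75, 3.13 and 2.50 in TG HFD and 1.58, 2.26 and 1.33 in WT HFD, of which 2 are below 2 (1.04, SE 0.26, adjusted p = 0.0335). Each of the 3 genes was higher in every TG HFD array than in any WT HFD array. Rpl3 was higher by 1.21 (SE 0.20, adjusted p = 0.00213). Rps13, which binds ribosomal RNA of the small subunit, differed by 1.19 without passing (adjusted p = 0.0672). It passed with genes of mean at least 2 only (adjusted p = 0.0404), without WT HFD replicate 2 (0.0499) and without TG HFD replicate 4 (0.0174). Its WT HFD values, 1.38, 1.67 and 0.44, are all below 2. A probe set that Rps13 shares with its pseudogene went the other way, with means of 2.45 in WT HFD and 0.57 in TG HFD. Another such probe set was higher in TG HFD, at 1.67 against 0.63.

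Rpl3 and Rpl29 kept their calls in all 7 fits without 1 array. Rps12 lost its call without WT HFD replicate 1, 2 or 3 or TG HFD replicate 2 (adjusted p = 0.0902, 0.0813, 0.0744 and 0.0639). Rpl17 lost it without WT HFD replicate 1 or 3 or TG HFD replicate 1, 2 or 3 (adjusted p = 0.135, 0.169, 0.0598, 0.071 and 0.0799). With these arrays of lowest correlation, WT HFD 1 and TG HFD 2, both left out, 1 member passed. With only the WT HFD and TG HFD arrays in the fit, Rpl29, Rps12 and Rpl17 did not pass (adjusted p = 0.085, 0.198 and 0.0822).

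Rpl29 has a second probe set that went the other way. Its values were 5.99, 6.48 and 5.89 in WT ND, 5.34, 4.78 and 4.10 in TG ND, 5.55, 5.68 and 5.68 in WT HFD, and 4.44, 4.26, 4.15 and 3.54 in TG HFD. Every TG array was below every WT array of the same diet, although the brighter probe set was higher in TG HFD. In a fit of all 41345 probe sets the difference was -1.38 on ND (adjusted p = 0.0278) and -1.54 on HFD (adjusted p = 0.00456). With the mean of both probe sets the HFD difference of Rpl29 changed sign (-0.43, adjusted p = 0.164). Against 0.624% of all probe sets on ND and 1.71% on HFD, 1 and 3 of the 41 additional probe sets of members passed. The others on HFD were the dimmer probe sets of Rpl7a (0.86, adjusted p = 0.0186) and of Rps12 (0.53, adjusted p = 0.0165), both higher in TG. Rps12 has 8 probe sets, of which 6 hold identical values, and the other probe sets correlated with the one used at r = 0.956 to 0.966, so that they are not separate evidence.

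Probe sets that carry several symbols were left out by the rule. Some of them name a gene that is a member through another probe set, such as Rpl34 and Rps13. Of these several-symbol probe sets, 2 that were higher in TG were singled out after their values were seen. The probe set of Rpl35a, shared with the chromatin remodeller Ino80, read 8.09, 8.16 and 8.14 in TG ND and 7.69, 7.60 and 7.63 in WT ND, and 8.10, 8.12, 8.02 and 7.96 in TG HFD against 7.69, 7.51 and 7.74 in WT HFD. TG arrays were above all WT arrays of either diet, by 0.49 on ND (adjusted p = 0.0166) and 0.40 on HFD (adjusted p = 0.0239). The probe set shared by Rpl34 and its pseudogene read 9.97, 10.09, 9.91 and 10.08 in TG HFD and 9.54, 9.67 and 9.55 in WT HFD (0.42, adjusted p = 0.0244). Over the 57 probe sets with several symbols, 1 was higher and 1 lower in TG on ND, and 3 were higher and 1 lower on HFD. Of all probe sets 0.624% passed on ND and 1.71% on HFD. Some fell by more than these rises. A probe set that Rps2 shares with predicted genes averaged 4.57 in WT ND and 3.20 in TG ND. A probe set that Rps13 shares with its pseudogene averaged 2.45 in WT HFD and 0.57 in TG HFD.

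**Figure D3:**
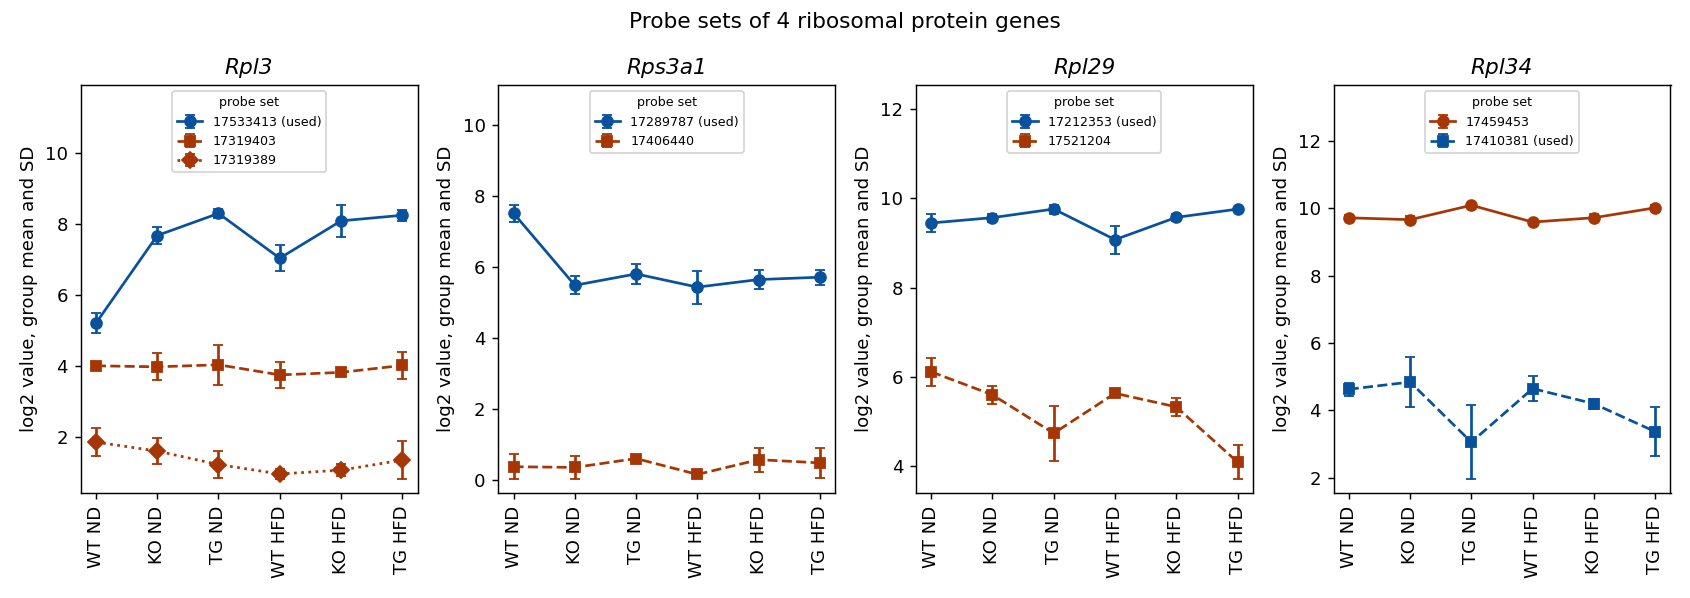
Group mean and SD of log2 values (n = 3, and n = 4 in TG HFD) for the probe sets of Rpl3, Rps3a1, Rpl29 and Rpl34. Blue marks the probe set that represents the gene and red the others; the red one of Rpl34 also carries the symbol of its pseudogene. The blue and red lines run in opposite directions in the TG groups for Rpl29 and Rpl34.

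KO and WT livers differed in the same 2 members on ND, 1 higher (Rpl3) and 1 lower (Rps3a1), against 1.38% of all genes higher and 1.6% lower (2.98% in either direction). The median difference was -0.028 over all 69 members and -0.030 over the 33 bright ones. The former ran from -0.071 (without KO ND replicate 3) to 0.0039 (without KO ND replicate 1), so that its sign is not settled. On HFD 1 member passed, Rpl3 (1.05, SE 0.22, adjusted p = 0.0433), against 0.194% of all genes higher and 0.338% in either direction. Rpl3 did not pass without WT HFD replicate 1 or 3 or KO HFD replicate 1 or 3 (adjusted p = 0.194, 0.088, 0.217 and 0.166). The median was 0.050 over all members and 0.094 over the bright ones, and the latter was 0.020 without WT HFD replicate 1. A probe set that Rpl26 shares with a predicted gene was singled out after its values were seen. It averaged 8.45 ± 0.14 in KO HFD and 7.13 ± 0.46 in WT HFD (SD, n = 3 each). The dim probe set that stood for Rpl26 went the other way, at 1.15 and 1.65.

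Set against TG, the KO livers had lower values for most bright members. On ND 31 of 33 lay below 0, with a median of -0.21 (-0.16 over all 69), and on HFD 28 of 33, with a median of -0.17 (-0.11 over all 69). Other bright genes had medians of -0.0097 and 0.035. These differences share the TG arrays with the comparisons above. Kupffer cell and macrophage markers were lower in KO too, with 9 of 12 past the threshold on ND (median -1.22, array means of 4.42 to 4.95 in KO and 5.88 to 6.45 in TG) and 5 of 12 on HFD (median -0.72, 4.49 to 5.21 and 5.81 to 6.34). Ighm, of 7 B and plasma cell markers (-2.12 and -2.23), and Cd4, of 10 T and NK cell markers (-1.35 and -1.14), passed on both diets. In these lists 3 of 7 and 5 of 10 genes had a mean below 1. Of 8 stellate cell and fibroblast markers Reln (-0.62) and Pdgfrb (-0.86) passed on ND. As a list these 8 averaged 4.40 in KO and 4.70 in TG on ND. On HFD the order was reversed, at 4.96 in KO and 4.72 in TG. The part of these cells in the member values was not tested. Among single members 1 of 69 passed on each diet, against 4.2% of all genes on ND (1.71% higher) and 2.35% on HFD (0.897% lower).

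On ND it was Rpl34, a protein at the surface of the large subunit, with 4.54, 4.30 and 5.68 in KO and 4.30, 2.16 and 2.70 in TG (1.78, SE 0.46, adjusted p = 0.0335). The highest TG array equalled the lowest KO array at 4.30, and the call was lost without KO ND replicate 1 or 3 or TG ND replicate 2 or 3 (adjusted p = 0.0522, 0.168, 0.18 and 0.128). The brighter probe set that Rpl34 shares with its pseudogene went the other way (-0.43, adjusted p = 0.028), in the fit of all probe sets, of which 1.95% passed. On HFD it was Rpl32l, a copy of Rpl32, with 0.39, 0.57 and 0.41 in KO and 1.84, 1.09, 0.86 and 1.61 in TG (adjusted p = 0.0157). Every one of these values is below 2, in the range taken as dim, so that no size of difference is read from them. The call was lost without KO HFD replicate 1 or 3 (adjusted p = 0.0689 and 0.0647).

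**Figure D4:**
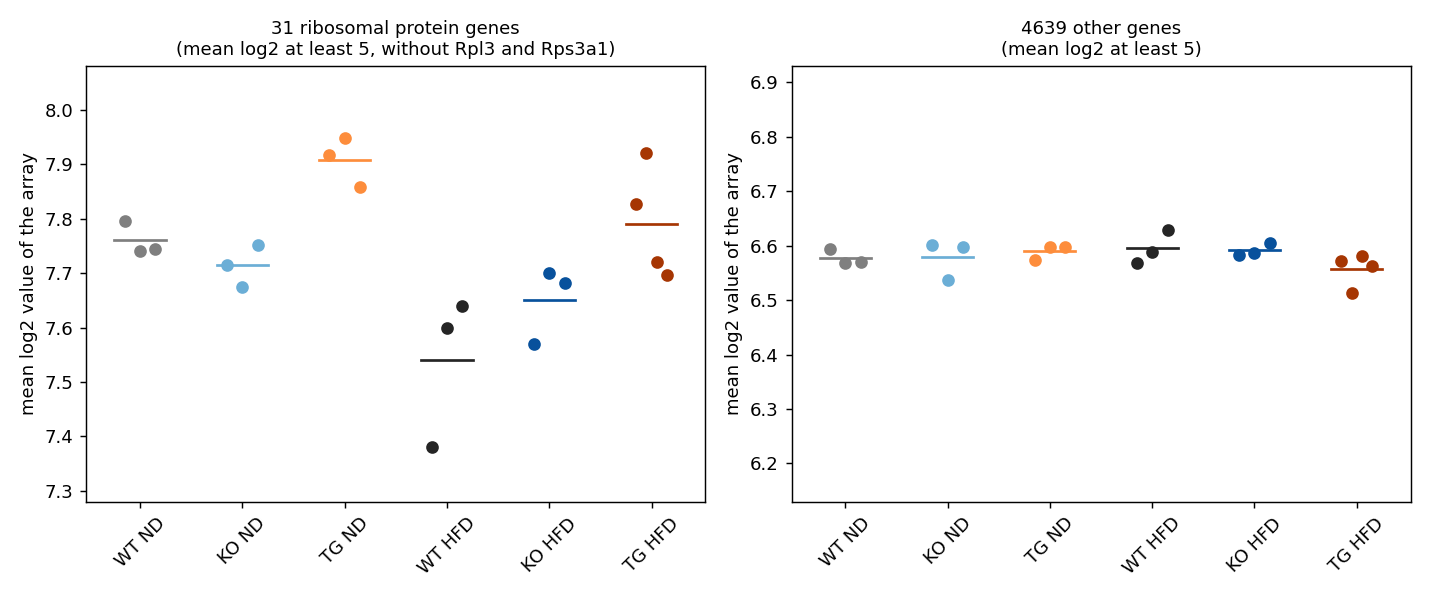
Mean log2 value per array of the 31 bright ribosomal protein genes other than Rpl3 and Rps3a1 (left) and of 4639 other bright genes (right), by group; points are arrays, lines are group means, and both axes span the same width. The ribosomal protein mean ran from 7.38 in WT HFD replicate 1 to 7.95 in TG ND replicate 2, and that of other genes from 6.51 to 6.63.

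The effect of HFD was compared within each genotype. In WT 1 of 69 members was higher (Rpl3) and 1 lower (Rps3a1), against 0.753% of all genes higher and 0.568% lower (1.32% in either direction). The median was -0.17 with 52 of 69 below 0, and -0.21 with 29 of 33 below 0 among the bright members, against 0.0027 in other bright genes. Array means of the 31 bright members other than Rpl3 and Rps3a1 were 7.38, 7.60 and 7.64 in WT HFD and 7.80, 7.74 and 7.74 in WT ND, with no overlap. Without WT HFD replicate 1 the median of the 33 was -0.15, with 28 below 0. A clock score, the mean of 9 clock genes that peak in the evening minus that of 5 that peak in the morning, was -0.71 in WT ND and 1.54 in WT HFD. With this score in the model Rpl3 (1.50, adjusted p = 0.523) and Rps3a1 (-2.32, adjusted p = 0.11) no longer passed for diet in WT, nor did the KO interaction of Rpl3 (-1.19, adjusted p = 0.367). All 3 estimates kept their sign. Arrays scored -1.78 to 0.054 in WT ND and 1.35 to 1.65 in WT HFD, without overlap, so that diet and clock cannot be told apart in WT. The score was 1.06 in KO ND and -1.45 in TG ND, and against WT ND both genes kept their calls with it in the model, in KO ND and in TG ND.

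In KO and in TG no member passed for diet by limma, against 0.803% and 0.906% of all genes. At an unadjusted p under 0.05 there were 3 members in KO (4.35%, against 11.3% of all genes) and 7 in TG (10.1%, against 10.1%). The medians of the bright members were -0.054 in KO, with 23 of 33 below 0, and -0.094 in TG, with 30 below 0. Without TG HFD replicate 2 the TG median was -0.16, with 32 below 0. In TG the array means were 7.92, 7.95 and 7.86 on ND and 7.83, 7.92, 7.72 and 7.70 on HFD, which overlap.

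**Figure D5:**
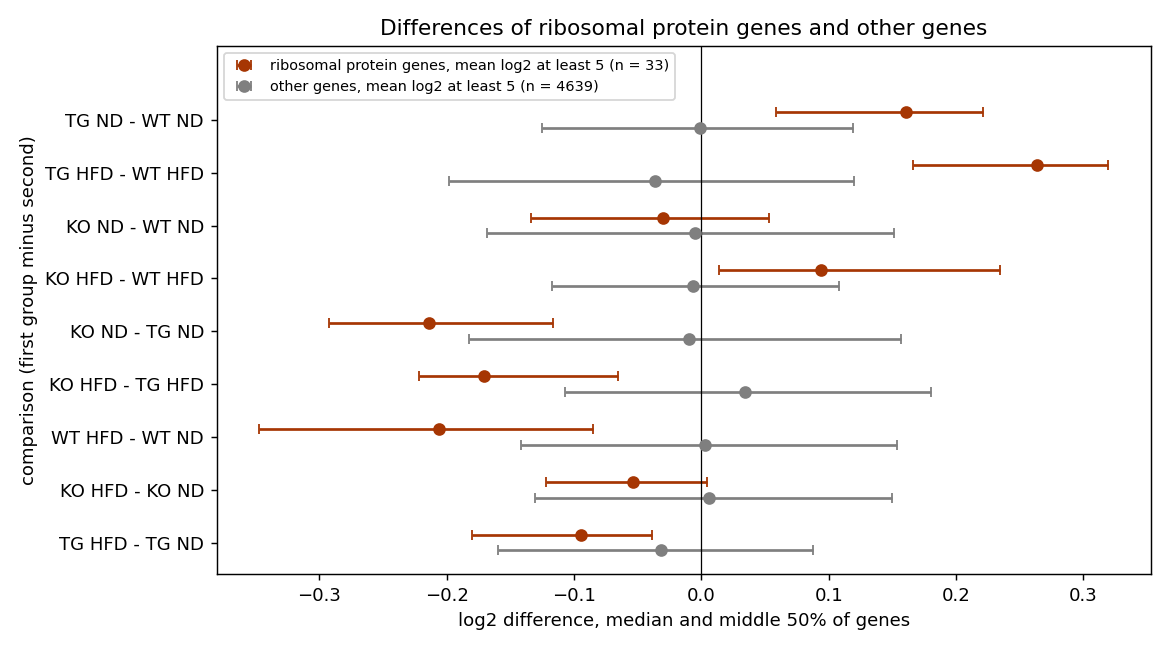
Median (point) and middle 50% (bar) of log2 differences over the 33 bright ribosomal protein genes (brown) and the 4639 other bright genes (grey) in the 9 comparisons of 2 groups. The brown medians lie at 0.16 and 0.26 for TG minus WT and at -0.21 and -0.17 for KO minus TG, while the grey ones stay within -0.036 and 0.035; several comparisons share groups.

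Members often used to scale PCR data were described separately. Rpl19 averaged 9.25 ± 0.040 in WT ND and 8.94 ± 0.21 in WT HFD (SD, n = 3 each). Rplp0, the base of the ribosomal stalk, was 5.10, 4.91 and 4.81 in WT ND, 5.47, 4.92 and 5.33 in KO ND, 5.59, 5.35 and 5.29 in TG ND, 4.84, 4.76 and 4.59 in WT HFD, 4.67, 4.88 and 4.42 in KO HFD, and 4.84, 4.43, 4.94 and 4.96 in TG HFD. The ND arrays of TG were above all TG HFD arrays (HFD minus ND -0.62, adjusted p = 0.0825), and in the main fit Rplp0 passed only the F test over the 6 groups. With genes of mean at least 2 only, its diet difference in TG passed (-0.62, adjusted p = 0.0412). In the fit of all probe sets it did not pass the F test (adjusted p = 0.0542). Rps18 and Rpl32 passed in no comparison. In WT all 4 of these genes were lower on HFD, by a median of 0.27 on the log2 scale, and none passed.

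Replacement of 1 paralogue by another was not tested. Of 13 measured genes from pairs such as Rpl3 and Rpl3l, Rpl22 and Rpl22l1, Rpl39 and Rpl39l, and Rps27 and Rps27l, only Rpl3 passed in any of the 11 contrasts. Over all genes 0.221% to 4.2% passed per contrast, so that few calls among 13 genes say little about paralogues. Rpl3l, a form known from muscle, had values from 0.27 to 1.00, and Rpl39 and Rpl39l had means of 1.27 and 1.04. All of these lie below 2, in the range taken as dim, so that their lack of calls shows nothing either way. Rpl22l1 differed from WT by -0.31 in TG ND (adjusted p = 0.418) and Rpl22 by 0.012. Fau, whose precursor also holds a small-subunit protein and which the rule leaves out, had group means from 7.36 to 7.65 and did not pass in any comparison.

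Lists of related genes gave few calls. Over all genes, 1.3% passed in either direction in TG against WT on ND and 3.57% on HFD. In KO against WT on ND 2.98% passed, and in KO against TG 4.2% on ND and 2.35% on HFD. For diet 1.32% passed in WT and 0.906% in TG. In TG against WT 10937 of all 22180 genes lay above 0 on ND and 10905 on HFD. Of 15 other mRNAs known to carry a TOP tract none passed against WT or for diet, and 1, the histone chaperone Nap1l1, was higher in KO than in TG on ND (0.68, adjusted p = 0.0256). They lay above 0 in TG in 12 of 15 cases on ND (median 0.095) and 13 of 15 on HFD (median 0.12). Ribosome biogenesis factors lay above 0 in TG in 37 of 45 cases on ND (median 0.11) and in 21 of 45 on HFD (median -0.0062). Of these 45 factors 1 passed in 1 of the 9 comparisons, Nop56, a core protein of box C/D particles, which was lower in KO than in TG on HFD (-0.57, adjusted p = 0.0435). Of 14 genes of RNA polymerase I transcription 1 was higher in TG HFD than in WT HFD, Polr1c (0.52, adjusted p = 0.0082), and 1 in KO ND than in WT ND, Polr1d (0.69, adjusted p = 0.0494). Both encode subunits shared with RNA polymerase III. On ND Polr1c was lower (-0.63, adjusted p = 0.00281) and Polr1d higher (0.80, adjusted p = 0.0156) in KO than in TG, and on HFD Polr1c was lower (-0.41, adjusted p = 0.0441).

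Of 19 genes of mTORC1 and MYC none passed against WT. Larp1, which binds TOP mRNAs, was lower in KO than in TG by 0.70 on ND (difference -0.70, adjusted p = 0.00175) and by 0.43 on HFD (difference -0.43, adjusted p = 0.0457). It was also lower in TG on HFD than on ND (-0.49, adjusted p = 0.0409). Of 11 p53 targets, which respond when ribosome assembly is disturbed, Ccng1 (-0.68, adjusted p = 0.0274) and Perp (-0.51, adjusted p = 0.0403) were lower in TG HFD than in WT HFD, and Perp was higher in WT HFD than in WT ND (0.68, adjusted p = 0.0211). The 71 measured mitochondrial ribosomal proteins, which are encoded by other genes, had a median of -0.041 in TG against WT on ND and of -0.11 on HFD. On HFD 1 of them was higher (Mrpl15, 0.44) and 1 lower (Mrps10, -0.94), against 3.57% of all genes in either direction.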

How the data were processed

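The values deposited are on a log2 scale, 1 for each probe set on each of 19 arrays (1 per sample), and had been normalized by the authors. Per the submitters' processing notes affy, RMA and limma were used, with no version or role; the log base was inferred from those names and the range of values. Arrays have no read depth, and their number limits the precision. Of 41345 probe sets, 23521 carry 1 symbol in the platform annotation, 1814 several and 16010 none here. The single-symbol probe set of highest mean stood for each of 22180 genes, with no filter on dim genes. By this rule 22 RefSeq protein-coding ribosomal protein genes, such as Rpl13a and Rps2, were not members, of which 14 share a probe set with another symbol. All arrays were fitted as 6 group means by lmFit, contrasts.fit and eBayes of limma 3.58.1 (R 4.3.3); residual degrees of freedom were 13 and those of the prior 4.76. P-values are two-sided and adjusted by Benjamini-Hochberg over all genes within each of 9 comparisons and 2 interactions, with a threshold of 0.05; SE are moderated and SD are between arrays of a group. The fit was first tested on simulated data in which 200 genes changed. Named were members past the threshold, the 2 largest rises and falls in each comparison, paralogues and PCR reference genes, Kcp and Fau, and from other lists up to 3 genes that passed; the text gives a selection. Members and lists were chosen with earlier results of these data known. Promoter windows are from RefSeq (GRCm38.p6), and 54 of 69 members matched. Alternatives were array centring, renormalization, variance trend, array weights, a clock covariate, a filter on dim genes, other probe-set rules and left-out arrays.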

Additional observations from a re-analysis of the deposited data

Results flagged for a closer look

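Rps23rg1 in TG HFD replicate 3 was at 4.56, far from the other 3 arrays of its group (3.46, 3.26 and 3.39). Of the 29 named members tested for a sample that stands apart, in the group of 4, this was the only one; chance picks about 1 in 20. The diet difference changed with genotype for 2 genes by limma's interaction test. For Rpl3 it was -1.42 in KO minus WT and -1.88 in TG minus WT. For Rps3a1 it was 2.24 in KO minus WT and 1.99 in TG minus WT. All 4 values rest on the same WT ND and WT HFD arrays.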

How the results depend on the processing

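No paired analysis was possible because the labels give no replicate numbers or pairing and replicates were numbered in accession order.

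Members past the threshold changed in number as follows. In TG against WT on HFD the count of 4 became 1 with the arrays of the compared groups only and 1 without both WT HFD 1 and TG HFD 2, 5 with a variance trend, 6 with genes of mean at least 2, and 2 to 6 without 1 array. In KO against WT on HFD the 1 became 0 with the compared arrays only, with median centring, with array weights, with the clock score and with all probe sets, and 0 to 1 without 1 array. In KO against TG on ND the 1 became 2 with a variance trend, 3 with genes of mean at least 2, 3 with array weights, 0 with the clock score and 0 with all probe sets, and 0 to 1 without 1 array; on HFD it became 0 with the clock score, and 0 to 2 without 1 array. For diet the 2 in WT became 0 with the clock score (2 to 3 without 1 array), and the 0 in TG became 1 with genes of mean at least 2. The KO interaction fell from 2 to 1 with the compared arrays, the clock score and all probe sets (1 to 2 without 1 array), and the TG interaction from 2 to 1 with the mean of probe sets. The F test count of 9 became 14 with genes of mean at least 2, 3 with the clock score and 4 with all probe sets (3 to 8 without 1 array). TG and KO against WT on ND gave 2 under all settings other than left-out arrays, which gave 2 to 3 and 2. The clock score differs between diets and genotypes, and the cause of these changes was not tested.

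Median member differences moved in TG against WT on ND from 0.10 to 0.13 with genes of mean at least 2 (0.092 to 0.15 without 1 array), in KO against WT on ND from -0.028 to 0.043 with the clock score (-0.071 to 0.0039 without 1 array), which turns its sign, in KO against TG on ND from -0.16 to -0.094 with the mean of probe sets, in TG for diet from -0.095 to -0.020 with the clock score, and in the KO interaction from 0.092 to 0.013 with the mean of probe sets (0.035 to 0.11 without 1 array).

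Among single genes named here the sign of 4 differences changed, none of them with an adjusted p under 0.05 there. With the mean of probe sets Rpl29 in TG against WT on HFD was -0.43 (adjusted p = 0.164) and Rpl3 for diet in KO -0.094. With the clock score Rpl17 and Rps23 for diet in TG were -0.14 and -0.00022. With the compared arrays only, Rpl29, Rps12 and Rpl17 lost their calls on HFD (adjusted p = 0.085, 0.198 and 0.0822).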
